A study of Mus musculus with 12 samples.

Results

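The comparison described here sets whole cell RNA of LSK cells against whole cell RNA of granulocytes, the first and the last of 4 stages of granulopoiesis in mouse bone marrow. miRNA levels were read by TaqMan low-density array (TLDA) RT-qPCR, with a well for every miRNA. The CT is the PCR cycle of threshold crossing, so it drops as template increases, by 1 cycle for each 2-fold increase where amplification is complete. The series holds 12 samples with 593 assays each, a single sample for every combination of the 4 stages, which include promyelocytes and myelocytes in between, with whole cell, cytoplasmic or nuclear RNA. The assays are numbered in the deposited table, and 269 were given a miRNA name by matching to the named values published with the study, 246 by their CTs and 23 by their differences between stages. The members are the 124 named miRNAs with a CT under 30 in LSK cells or in granulocytes, 88 on card A and 36 on card B. Template was detected, as a CT below 40, in 266 assays of the LSK sample and 288 of the granulocyte sample.

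Both groups came from C57BL/6 bone marrow, with no transgene or treatment named for either. LSK cells were sorted as cells without the lineage markers B220, Ter119, CD3, Gr-1 and CD11b and with Sca1 and cKit, a gate that takes in multipotent progenitors as well as stem cells. The labels name them hemopoietic stem cells. Granulocytes are the most mature stage that was sorted, and their purity was judged in the study by re-analysis of the sorted cells and by stained morphology. The minimum purity it reports for the sorted cell types leaves room for a share of other cells in each. The number of animals behind each sample and any pooling are not given in the sources used here. With 1 sample per group no difference has a replicate check, no test was made and no p-value is given. Per the labels each reaction held 100 ng of RNA, so that a whole cell CT would compare levels per amount of RNA, and a lower content per cell and fewer cells of a type cannot be told apart in such bulk samples.

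A miRNA is a short RNA that guides Argonaute proteins to mRNAs, mainly through its seed, bases 2 to 8 from the 5′ end, and lowers their translation and stability. The stem and progenitor compartment of the marrow is known for miR-125, miR-126, miR-130a, miR-155 and the miR-196 family, which is encoded among the Hox genes. Maturing granulocytes are known for miR-223, a myeloid miRNA that represses Mef2c, and blood cells in general for miR-142.

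The mature sequences were taken from RefSeq on GRCm38.p6, where 101 of the 124 members were matched, and are printed 5′ to 3′ with the seed in capitals. The first set holds members with some of the widest differences towards granulocytes, together with miR-142-3p, which had 1 of the lowest CTs in granulocytes.
miR-223: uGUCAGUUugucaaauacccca
miR-139-5p: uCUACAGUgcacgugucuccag
miR-139-3p: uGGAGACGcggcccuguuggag
miR-135a: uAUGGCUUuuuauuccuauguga
miR-744*: cUGUUGCCacuaaccucaaccu
miR-200c: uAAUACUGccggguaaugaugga
miR-22: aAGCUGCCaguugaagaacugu
miR-106b*: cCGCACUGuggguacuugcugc
miR-149: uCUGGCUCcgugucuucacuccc
miR-142-3p: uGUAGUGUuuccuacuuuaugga
Among the matched members none shares a seed with this first set; miR-135b, which is named only, belongs to the family of miR-135a. miR-223-3p lies on the plus strand at chrX:96242884-96242905. The miR-139 arms lie at chr7:101475382-101475403 and chr7:101475418-101475439, within the span of Pde2a, and the miR-744 hairpin lies within that of Map2k4. miR-135a is encoded at 2 loci, chr9:106154140-106154162 and chr10:92072141-92072163, which a mature CT cannot separate.

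The next set holds members with some of the widest differences towards LSK cells.
miR-196b: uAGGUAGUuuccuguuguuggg
miR-31: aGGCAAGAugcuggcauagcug
miR-125a-5p: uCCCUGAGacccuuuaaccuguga
miR-125b-5p: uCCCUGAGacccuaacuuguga
miR-155: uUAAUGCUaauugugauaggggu
miR-130a: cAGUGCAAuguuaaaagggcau
miR-203: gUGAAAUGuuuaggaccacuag
miR-126-3p: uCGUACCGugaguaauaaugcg
miR-222: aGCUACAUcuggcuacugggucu
miR-125a-5p and miR-125b-5p carry 1 seed and are encoded on different chromosomes. miR-196b lies on the minus strand at chr6:52230129-52230150, miR-155 at chr16:84714143-84714165, and miR-126-3p at chr2:26591402-26591423 within the span of Egfl7.

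The last set shows seeds shared by several members, first a family in which every member was higher in granulocytes. Then come pairs and a trio with 1 seed whose members differed in sign under the scaling given below, though miR-221 and miR-130b lay within 2-fold.
miR-15a: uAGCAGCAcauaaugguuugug
miR-15b: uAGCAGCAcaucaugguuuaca
miR-16: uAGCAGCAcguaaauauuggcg
miR-195: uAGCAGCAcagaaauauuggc
miR-322: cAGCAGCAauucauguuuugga
miR-301a: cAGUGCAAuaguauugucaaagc
miR-130b: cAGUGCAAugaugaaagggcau
miR-130a: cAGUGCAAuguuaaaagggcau
miR-25: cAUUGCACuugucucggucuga
miR-92a: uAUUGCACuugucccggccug
miR-221: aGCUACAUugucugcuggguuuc
miR-222: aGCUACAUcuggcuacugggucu
miR-222 is repeated here beside miR-221, and miR-130a beside its family.

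Most members had more template in granulocytes than in LSK cells. The log2 differences that follow are CT in LSK cells minus CT in granulocytes, less 0.676 cycles, the mean change of the 3 final assays of card B, whose targets the table does not name, and positive values stand for a higher level in granulocytes. Of the 124 members, 69 were higher by 2-fold or more in granulocytes (55.6%), 20 were lower by 2-fold or more (16.1%) and 35 lay within 2-fold. Among all 135 assays with a CT under 30 in either sample, named or not, the shares were 51.1% higher and 16.3% lower. These assays passed the same CT filter and include all 124 members, so the nearness of the shares was largely fixed in advance. The median difference of the members was 1.31, with quartiles of -0.12 and 2.72. A difference of 4-fold or more was found for 46 members in the direction of granulocytes and for 11 in that of LSK cells, and of 16-fold or more for 11 and 6.

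The size of this imbalance rests on the scaling and on how members enter. The rule takes in 39 miRNAs under 30 in granulocytes alone, of which 34 were higher and 5 lay within 2-fold, and 8 under 30 in LSK cells alone, of which 7 were lower and 1 lay within 2-fold. The filter itself leans these members towards the sample in which they passed. Among the 77 under 30 in both samples 35 were higher, 13 were lower and the median was 0.72. Of the 89 members past 2-fold, 77.5% were higher in granulocytes, against 87.6% without scaling, 62.2% after scaling by the mean CT of 73 assays and 64.6% with that mean taken per card. On card A 58 of these assays changed by a mean of 1.72 cycles, and on card B 15 changed by 0.71. The whole cell LSK sample also stood apart from its cytoplasmic counterpart. Its CT was higher than the cytoplasmic CT by a median of 1.32 cycles, whereas the median of whole cell minus cytoplasmic CT was -0.60 for promyelocytes, -0.10 for myelocytes and -0.48 for granulocytes, and the part of this offset in the differences was not tested.

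**Figure D1:**
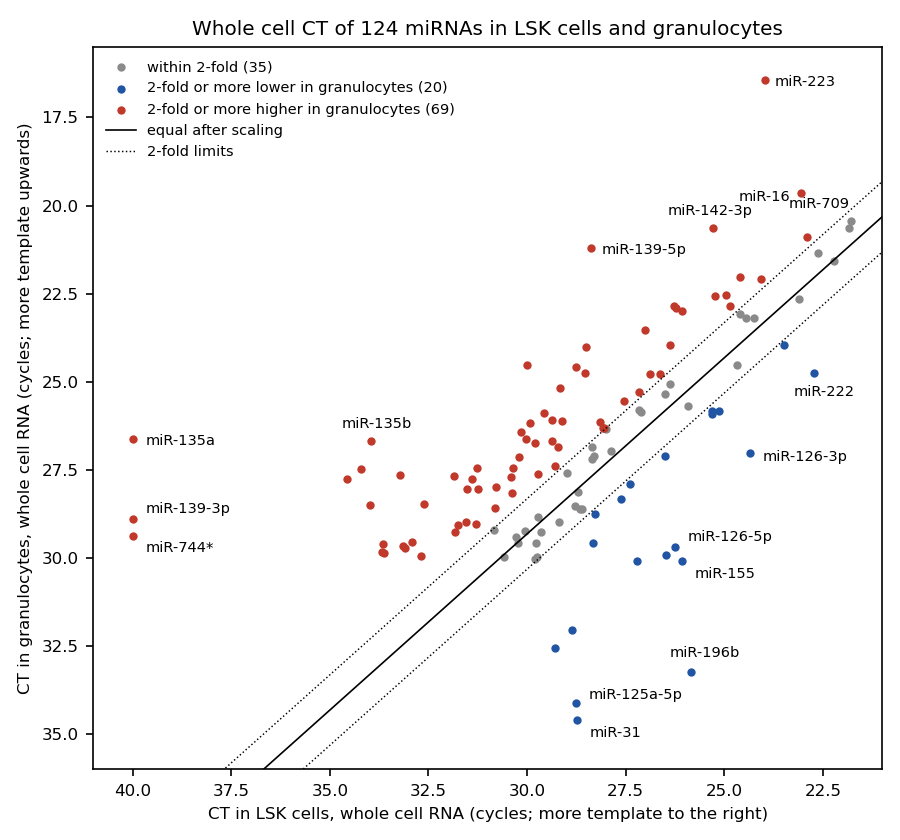
Whole cell CT of each of the 124 miRNAs in LSK cells (horizontal axis, cycles) against granulocytes (vertical axis, cycles), both axes reversed so that more template lies to the right and upwards. The solid line marks equal levels after subtraction of 0.676 cycles and the dotted lines the 2-fold limits; 69 miRNAs lie above them, 20 below, and miR-135a, miR-139-3p and miR-744* sit at the LSK value of 40 given to undetermined wells.

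miR-223 was the most abundant member in granulocytes and miR-709 in LSK cells, with the reserve that CTs of different assays compare only roughly, since assays differ in efficiency. The 10 lowest CTs in LSK cells belonged to miR-709 (21.8), miR-19b (21.8), miR-17 (22.2), miR-191 (22.6), miR-222 (22.7), miR-720 (22.9), miR-16 (23.1), miR-106a (23.1), miR-92a (23.5) and miR-223 (23.98). In granulocytes they belonged to miR-223 (16.4), miR-16 (19.6), miR-709 (20.4), miR-142-3p (20.6), miR-19b (20.7), miR-720 (20.9), miR-139-5p (21.2), miR-191 (21.4), miR-17 (21.6) and miR-484 (22.03). The lists share 7 miRNAs. miR-222, miR-106a and miR-92a were among the lowest in LSK cells alone, and miR-142-3p, miR-139-5p and miR-484 in granulocytes alone. miR-720 is an entry since removed from miRBase as a fragment of a tRNA.

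Among miRNAs with a CT under 35 in both samples, miR-223 differed most towards granulocytes, from a CT of 23.98 in LSK cells to 16.43 in granulocytes, a 117-fold higher level and a log2 difference of 6.87. In promyelocytes its scaled level was already higher by 4.25 log2 units. miR-139-5p followed a different course, with CTs of 28.4, 27.4, 22.6 and 21.2 in stage order, a 90.6-fold higher level at the end. The step from promyelocytes to myelocytes held 4.89 of its 6.50 log2 units. miR-135b went from 34.0 to 26.7 and was 97.5-fold higher in granulocytes.

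Members that were faint in LSK cells made up much of the rest. miR-200c, which keeps epithelial cells in their state by repressing Zeb1 and Zeb2, went from 34.6 to 27.8 and was 69.7-fold higher. miR-22, a repressor of Tet2, went from 34.2 to 27.5 and was 66.3-fold higher. These LSK values lie near the end of the usable range, so the folds lean on wells with little template. miR-106b* (33.2 to 27.6), miR-365 (34.0 to 28.5) and miR-149 (30.01 to 24.54) were 29.8-fold, 27.8-fold and 27.7-fold higher. miR-142-3p, by contrast, was plentiful in both samples, with 25.3 in LSK cells and 20.6 in granulocytes, a 15.7-fold higher level. miR-340-5p (28.52 to 24.01), miR-195 (28.8 to 24.6) and miR-467a (31.8 to 27.7) close this set at 14.2-fold, 11.2-fold and 11.2-fold higher.

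miR-135a, miR-139-3p and miR-744* were listed at 40 in LSK cells, the value given to an undetermined well, and had CTs of 26.6, 28.9 and 29.4 in granulocytes. Their log2 differences of 12.71, 10.42 and 9.95 rest on that value, and with such wells set to 35 they were 7.71, 5.42 and 4.95. In cytoplasmic RNA of LSK cells miR-135a was detected at 33.3 and miR-744* at 33.5, while miR-139-3p was listed at 40 there too. No member was listed at 40 in granulocytes.

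miR-196b differed most in the direction of LSK cells. Its CTs in stage order were 25.8, 29.3, 31.3 and 33.2, so that it was 267-fold lower in granulocytes, a log2 difference of -8.06. miR-196b targets Hox mRNAs and is known from early progenitors and from leukaemias with MLL fusions. miR-31 went from 28.7 to 34.6 and was 94.6-fold lower, but its CT of 29.5 in myelocytes broke the order of the stages. miR-125a-5p went from 28.8 to 34.1 and was 65.9-fold lower, and it had reached 34.8 by the promyelocyte stage.

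miR-155, which is induced in activated immune cells and represses Ship1, stepped down by a similar amount at each stage, with CTs of 26.1, 27.4, 28.9 and 30.1, and ended 26.3-fold lower. Both strands of miR-126, a miRNA that restrains PI3K signalling in stem cells, were lower in granulocytes. miR-126-5p went from 26.2 to 29.7, 17.7-fold lower, and miR-126-3p from 24.34 to 27.02, 10.3-fold lower. For miR-126-3p nearly all of the difference was already present in promyelocytes, at a CT of 27.1. miR-125b-5p (28.87 to 32.05) was 14.5-fold lower and miR-130a (29.3 to 32.6) was 15.4-fold lower.

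miR-203, known as a repressor of p63 in the epidermis, went from 27.2 to 30.1 and was 11.8-fold lower, opposite in direction to the other epithelial member miR-200c. miR-222, which represses Kit, the receptor used in the LSK gate, went from 22.7 to 24.8 and was a factor of 6.598 lower. miR-320 was 3.75-fold lower. miR-805, an entry since removed from miRBase, went from 26.5 to 29.9 and was 17.3-fold lower. Beyond these, the remaining 8 of the 20 lower members differed by log2 values between -1.39 and -1.15, close to the limit.

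**Figure D2:**
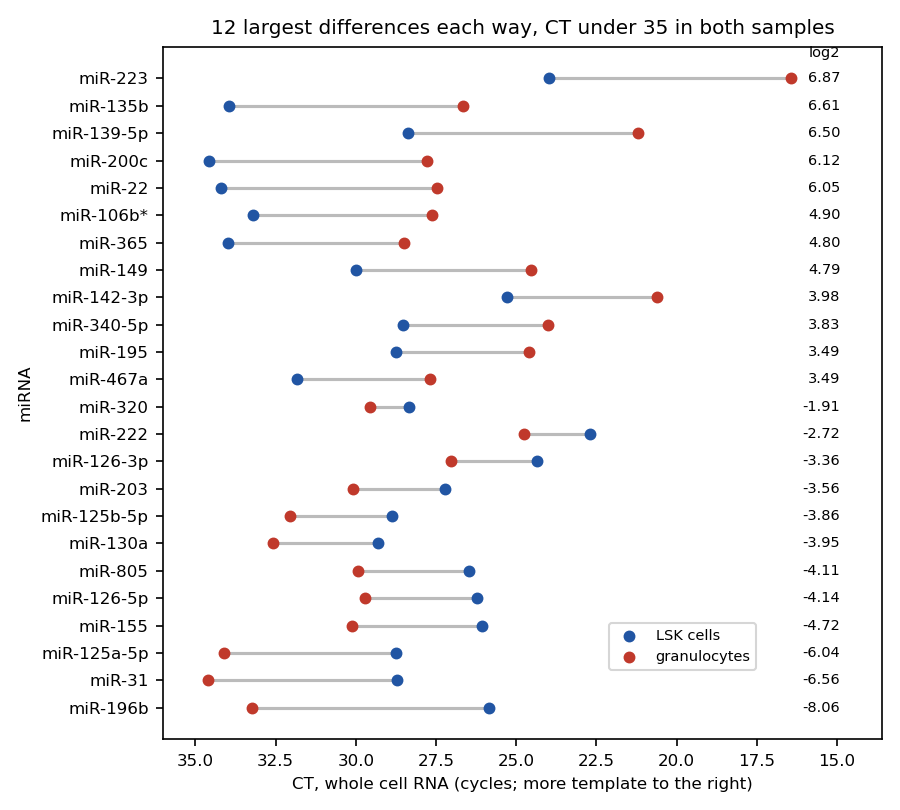
CT in LSK cells (blue) and granulocytes (red), on a reversed axis in cycles, for the 12 widest differences in each direction among miRNAs with a CT under 35 in both samples; the numbers at the right are log2 differences after scaling. They run from 6.87 for miR-223 to -8.06 for miR-196b, with 1 sample behind each point.

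Of 9 members known from stem and progenitor cells 7 were lower in granulocytes, 1 was higher and 1 lay within 2-fold, with a median of -3.95, where 16.1% of all members were lower and their median was 1.31. Of these 7 lower members 5 passed the CT filter in LSK cells alone, which favours that direction, and 2, both strands of miR-126, were under 30 in both samples. The lower members were miR-125a-5p, miR-125b-5p, miR-126-3p, miR-126-5p, miR-130a, miR-196b and miR-155. let-7e, which is encoded beside miR-125a, lay within 2-fold at -0.46. miR-10b, another miRNA of the Hox clusters, passed the filter in granulocytes alone and was higher, with a CT of 30.4 in LSK cells and 27.4 in granulocytes and a log2 difference of 2.24, but its cytoplasmic CTs of 28.2 and 28.7 did not show it.

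The miRNAs linked to myeloid cells and granulocytes had a median of 2.51. Of 7 members 5 were higher, where 55.6% of all members were, namely miR-223, miR-142-3p, miR-142-5p, miR-27a and miR-24, with log2 differences from 1.30 to 6.87. miR-142-5p passed the filter in granulocytes alone, and the 6 members under 30 in both samples had 4 higher and a median of 2.19. miR-21 lay within 2-fold at 0.52. miR-146a, a brake on Traf6 and Irak1 signalling, was lower at -1.29. Its CTs in stage order were 25.3, 27.4, 24.4 and 25.9, so the granulocyte sample held less than both the LSK and the myelocyte sample.

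The family of miR-15, miR-16 and miR-195, whose members share the seed AGCAGCA and repress Bcl2 and G1 cyclins, was higher in all 5 members, where 55.6% of all members were, with a median of 2.80 against 1.31 over all members, and miR-15a alone among them was over 30 in LSK cells. miR-16 was the most abundant, at 23.1 in LSK cells and 19.6 in granulocytes. miR-195 had the widest difference at 3.49 and miR-322 the narrowest at 1.67, and the cytoplasmic CT of miR-322 did not differ in that direction, with 27.5 in LSK cells and 27.6 in granulocytes. The family is encoded at separate places, with miR-15a and a copy of miR-16 within the span of Dleu2 at chr14:61631894-61632096 and miR-15b with the other copy within that of Smc4 at chr3:69009775-69009939. The passenger strands at these loci had log2 differences of 2.12 for miR-15a*, 2.70 for miR-16* and 3.30 for miR-15b*, of which miR-15a* and miR-16* passed the filter in granulocytes alone.

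Other small lists had their members on the same side. miR-26a and miR-26b, repressors of Ezh2, had log2 differences of 1.73 and 2.74. miR-27a, miR-27b and miR-24, of the miR-23, miR-24 and miR-27 clusters, had 3.09, 1.997 and 1.30, and miR-192 and miR-194, which p53 induces, had 3.14 and 3.47. With the mean CT of 73 assays as the scaling, miR-26a and miR-24 lay inside 2-fold at 0.90 and 0.46. Under it miR-26b, miR-27a, miR-27b, miR-192 and miR-194 stayed past 2-fold. miR-103, a repressor of Dicer, stood at 2.03. miR-192, miR-194, miR-103 and miR-27b were over 30 in LSK cells and passed the filter in granulocytes alone, so their direction is no result of the list. Of these, miR-27b was not higher in the cytoplasm, where its CT was 28.9 in LSK cells and 29.6 in granulocytes. miR-103 hardly differed there, with CTs of 28.24 and 28.20.

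The rodent miRNAs of the Sfmbt2 intron, a large imprinted repeat cluster, entered with 6 of 11 named assays. All 6 were higher, with a median of 3.13, but 5 of the 6 passed the filter in granulocytes alone, which favours that direction. The part of the filter in the direction and the median was not tested, so neither is a result of the list. The members were miR-467a, miR-467a*, miR-467b*, miR-467c, miR-297a* and miR-466d-3p. The miR-467 names belong to a family of related miRNAs, and detection of one by the assay of another was not tested. miR-467c had CTs of 33.7, 31.9, 35.1 and 29.6 over the 4 stages, and its last step of 5.02 log2 units was the widest of its course. miR-466d-3p had 27.5 in LSK cells and 25.6 in granulocytes but was listed at 40 in both stages between.

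The miR-17-92 cluster, a growth-promoting polycistron driven by Myc, had 4 of 6 members within 2-fold between the first and the last stage, miR-18a higher at 1.55 and miR-92a lower at -1.15, with a median of 0.44. miR-18a passed the filter in granulocytes alone, and none of the 5 members under 30 in both samples was higher. The median turned to -0.60 with the mean CT per card and to -0.77 in cytoplasmic RNA without scaling. All 6 had a lower CT in promyelocytes than in LSK cells, as for miR-20a with CTs of 24.24, 22.02, 22.69 and 23.19 over the 4 stages. In nuclear RNA 5 of the 6 had a lower CT in promyelocytes too, but in cytoplasmic RNA only miR-18a did, and miR-20a went from 22.64 to 22.83 there. In the paralogous miR-106b-25 and miR-106a-363 clusters 3 of 5 members were higher and 1 was lower, near the shares of 55.6% and 16.1% over all members. miR-93, miR-25 and miR-106b, encoded within the span of Mcm7, had 2.64, 2.001 and 1.19, although miR-25 was at -0.25 in cytoplasmic RNA without scaling, while miR-106a and miR-20b on chromosome X had -0.22 and -1.39.

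The let-7 family, which represses Lin28 and Hmga2, had 5 of 6 members within 2-fold, let-7g higher at 1.73 and a median of -0.06. That median depended on the scaling, at -0.89 with the mean CT of 73 assays, -1.10 with that mean per card and 0.62 without scaling, and in cytoplasmic RNA it was -1.24 centred and -1.44 without scaling. The miR-30 family had 3 of 5 members higher, near the share over all members, and a median of 1.04, and the miR-29 family had miR-29c at 1.21 and miR-29a at 0.86. Both medians were below 0 in cytoplasmic RNA, at -0.52 and -0.33 without scaling. miR-101b, a repressor of Ezh2 like miR-26, was lower at -1.19, and miR-101a was no member.

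Among miRNAs linked to lymphoid cells, miR-150, a repressor of Myb, was lower at -1.39, and miR-181a and miR-342-3p lay within 2-fold at -0.49 and -0.43. With the mean CT of 73 assays the last 2 were past 2-fold lower, at -1.33 and -1.26. The list median was -1.53 with that mean per card, -2.31 in cytoplasmic RNA without scaling and 0.18 in whole cell RNA without scaling. miR-150 had CTs of 25.1, 28.8, 25.6 and 25.8, the promyelocyte sample holding the least. In the cluster of miR-322 and miR-503, which are known from cell cycle exit, 3 of 4 arms were higher, where 55.6% of all members were, and miR-503* was at -0.06. Both arms of miR-503 passed the filter in granulocytes alone, and miR-322 was at -0.10 in cytoplasmic RNA without scaling. miR-532-5p and miR-532-3p, of the Clcn5 intron, had 1.06 and 0.11, and their median turned from 0.59 to -0.46 with the mean CT per card. In cytoplasmic RNA of LSK cells miR-532-3p was listed at 40 against 30.1 in granulocytes, so that the cytoplasmic median of 7.25 without scaling rests on an undetermined well. The 6 miRNAs that the study singled out in nuclear RNA of these same samples, a choice that gives no independent evidence here, had 3 members higher (miR-142-3p, miR-467a* and miR-690), near the share over all members, and 3 within 2-fold (miR-706, miR-709 and miR-135a*), with a median of 1.18.

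**Figure D3:**
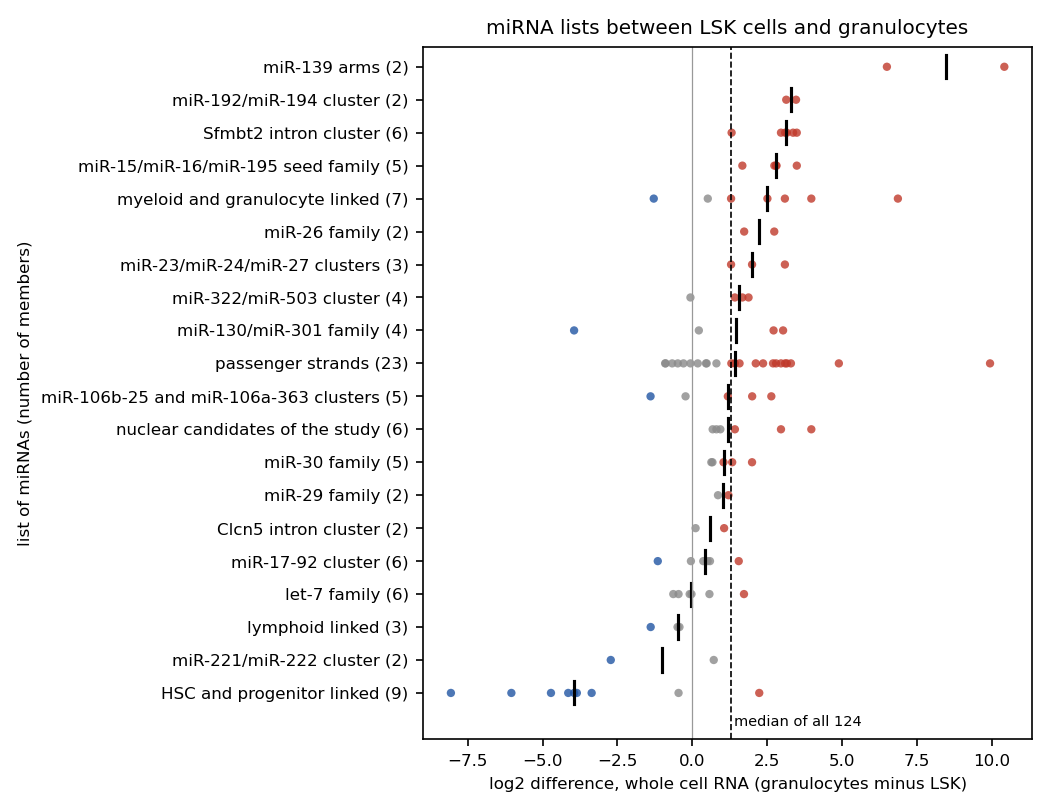
Log2 differences of granulocytes minus LSK cells in whole cell RNA (horizontal axis) for each list with 2 or more members, numbers of members in brackets; points are miRNAs, red for 2-fold or more higher, blue for 2-fold or more lower and grey for within 2-fold, and the black ticks are medians. The stem and progenitor list lies lowest with a median of -3.95, 5 of its 7 lower members having passed the CT filter in LSK cells alone, the family of miR-15, miR-16 and miR-195 lies wholly to the right with 2.80, and the dashed line is the median of all members, 1.31.

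A shared seed did not go with a shared direction in every family. Seeds were counted over the 101 members with a matched sequence, so the 23 others, among them miR-135b, miR-30b, miR-30d and miR-301b, are left out. Of 13 seeds carried by 2 or more matched members, 39 in all, 3 had every such member higher and 1 had every one lower. Another 3 had members past 2-fold on both sides, where 55.6% and 16.1% of all members were higher and lower. The CT filter leaned several of these. Both members of the all-lower seed, miR-125a-5p and miR-125b-5p, passed in LSK cells alone, and 2 of the 3 all-higher seeds held a member, miR-15a or miR-27b, that passed in granulocytes alone. Among the 8 seeds with every member under 30 in both samples 1 was all higher, that of miR-26a and miR-26b, none was all lower and 2 had members on both sides. However, miR-26a lay inside 2-fold at 0.69 with the mean CT per card and at 0.54 in cytoplasmic RNA without scaling. miR-26b stayed past 2-fold in these readings, at 1.70 and 1.14, so their seed was all higher in neither. The seed AGUGCAA was carried by miR-301a at 2.72, miR-130b at 0.22 and miR-130a at -3.95, and miR-301b, another miRNA of the miR-130 and miR-301 family, stood at 3.03. miR-301a and miR-301b passed the filter in granulocytes alone and miR-130a in LSK cells alone, which favours the direction each showed, and only miR-130b was under 30 in both samples. miR-25 and miR-92a, with the seed AUUGCAC, stood at 2.001 and -1.15, but miR-25 was at 0.96 with the mean CT per card, inside 2-fold, and in cytoplasmic RNA without scaling both were below 0, at -0.25 and -2.02. The seed AAAGUGC was carried by miR-93 at 2.64 and by miR-20b at -1.39, with 4 further members between them.

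miR-221 and miR-222 share a seed and lie together at chrX:19146307-19146923. miR-222 went from 22.7 to 24.8 while miR-221 went from 29.0 to 27.6, log2 differences of -2.72 and 0.72. The side on which miR-221 lay depended on the scaling and the fraction, with -0.12 under the mean CT of 73 assays, -0.33 with that mean per card and -0.59 in cytoplasmic RNA without scaling, where miR-222 stood at -3.56, -3.76 and -3.06. At promyelocytes the scaled steps in whole cell RNA were 1.61 for miR-221 and -1.84 for miR-222, while in the cytoplasm the CT of miR-221 went from 26.88 to 27.40. let-7e and miR-125a-5p lie together at chr17:17830366-17830840 within the span of Spaca6, with CTs of 25.9 and 25.7 for let-7e and of 28.8 and 34.1 for miR-125a-5p.

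Both strands of 22 hairpins were among the members, which again covers only strands that passed the filter. They had the same sign in 18 pairs, with both strands past 2-fold higher in 13 and past 2-fold lower in 1, miR-126. In 10 of the 13 at least 1 strand passed the filter in granulocytes alone, and of the 9 pairs with both strands under 30 in both samples 6 had the same sign and 3 had both strands higher. The strands differed by less than 2-fold in 11 pairs, as for miR-16 and miR-16*, at 2.74 and 2.70, although the guide strand had a CT of 23.1 in LSK cells and the passenger strand one of 33.1. The other 11 pairs differed by 2-fold or more. miR-106b* had a log2 difference of 4.90 against 1.19 for miR-106b, and miR-93 had 2.64 against 0.48 for miR-93*, strands of neighbouring hairpins in Mcm7. miR-135a* went from 28.3 to 26.9, a difference of 0.81, where miR-135a was undetermined in LSK cells. Of 65 assays named as passenger strands 23 were members, 13 of them higher and 10 within 2-fold with a median of 1.42, a share near the 55.6% of all members. Of the 13 higher strands 10 passed the filter in granulocytes alone, and among the 10 strands under 30 in both samples 3 were higher and the median was 0.47. The highest was miR-744* and the lowest miR-425* at -0.91.

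The intermediate stages show at which step a difference lay. The steps add up to the difference between the end samples that set the calls, so the counts and medians of steps describe the called members and are no separate evidence for them. Of the 69 higher members, 31 were higher after each of the 3 steps than before it and 38 were not. The widest upward step was that from promyelocytes to myelocytes for 39, from LSK cells to promyelocytes for 25 and from myelocytes to granulocytes for 5. The median steps of the 69 were 0.73, 1.49 and 0.39 in stage order, against 0.38, 0.76 and 0.03 over all 124 members. Of the 20 lower members 8 were lower after each step. Their widest downward step was the first for 10, the second for 8 and the last for 2, and the median steps were -1.71, -0.97 and -0.51. The second step was the widest for miR-139-5p, miR-22, miR-135b, miR-16, miR-15a and miR-26b, and the first for miR-223, miR-149, miR-200c, miR-126-3p, miR-125a-5p and miR-196b.

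The first step of the higher members differed between the RNA fractions. Of 65 higher members under 40 in all 4 cytoplasmic samples, 53 had a higher CT in promyelocytes than in LSK cells there and 12 a lower one, and over the 119 such members in all the numbers were 105 and 14. The unscaled median cytoplasmic steps of the 65 were -1.13, 2.15 and 0.47 in stage order. The widest step towards a higher level was the second for 56, the first for 3 and the last for 6. miR-200c, whose whole cell CT went from 34.6 to 31.2 at the first step, went from 32.4 to 33.9 in the cytoplasm, and miR-223 went from 21.8 to 20.3 there. The 20 lower members had unscaled cytoplasmic median steps of -3.15, -0.63 and -0.90, the first being the widest downward step for 13. The whole cell LSK sample is the one that stood 1.32 cycles from its cytoplasmic counterpart, and the part of this offset in the first step was not tested.

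**Figure D4:**
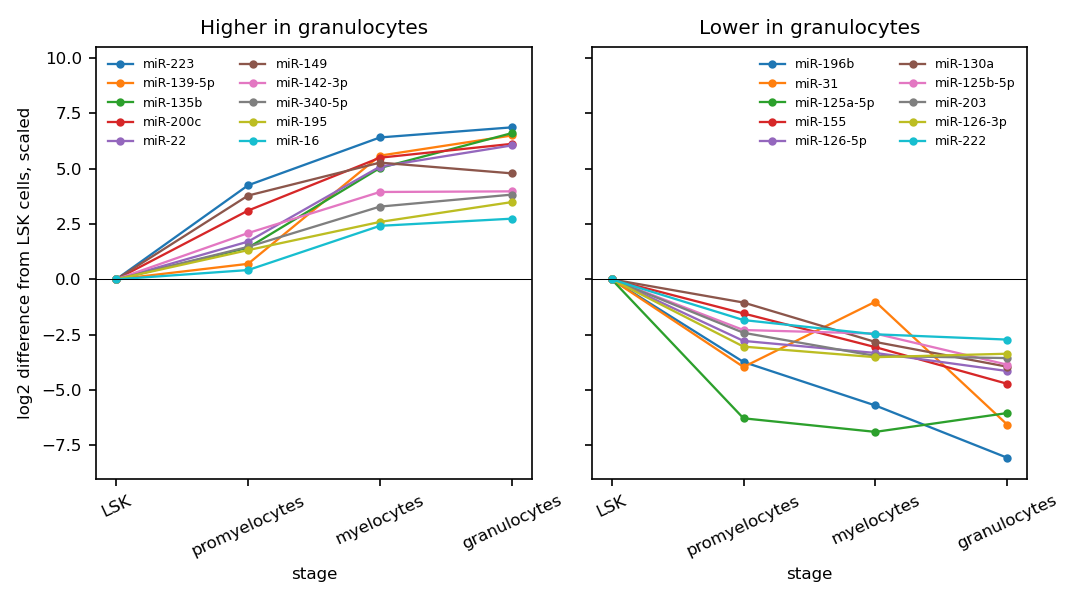
Scaled log2 difference from LSK cells (vertical axis) at the 4 stages for 10 miRNAs that were higher and 10 that were lower in granulocytes, 1 whole cell sample per stage. miR-223 lies highest throughout the left panel and ends at 6.87, miR-139-5p starts low and gains 4.89 between promyelocytes and myelocytes, and in the right panel miR-31 returns towards the LSK level in myelocytes before its last fall.

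Cytoplasmic and nuclear RNA of the same stages gave a second reading of the comparison from separate reactions. Whether the fractions and the whole cell RNA came from the same sorted cells is not given in the sources used here, so the readings may be technical repeats. The input is not settled either, since the labels give 100 ng of RNA for all samples while the study describes the cytoplasmic and nuclear CTs as based on equal cell numbers, and unscaled differences in these fractions may be per RNA or per cell. In cytoplasmic RNA 118 members were under 40 in all the samples concerned, and across them the whole cell and unscaled cytoplasmic differences had a Pearson r of 0.94 and a Spearman rho of 0.91, a description over miRNAs that share the same cards. The 20 lower members were all lower by 2-fold or more in the cytoplasm as well. miR-196b went from 25.1 to 32.7 there, miR-125a-5p from 27.2 to 35.2 and miR-155 from 24.9 to 31.2. Of 64 higher members with a cytoplasmic value, 56 had the same sign and 42 passed 2-fold, among them miR-223, which went from 21.8 to 16.8, and miR-139-5p, which went from 27.1 to 21.7.

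The cytoplasmic differences lay lower as a whole. Over the 85 members under 30 in both cytoplasmic samples the median unscaled difference was -0.20 cycles, where over the 77 under 30 in both whole cell samples it was 1.39. miR-106b* differed by 1.09 cycles in the cytoplasm, from 28.4 to 27.3, against 5.57 cycles in whole cell RNA before scaling. miR-532-5p went the other way, from 31.4 to 26.8 in the cytoplasm, 4.63 cycles. In nuclear RNA 105 members were measured, with a Pearson r of 0.85 and a Spearman rho of 0.85, and without scaling 53 of 54 higher and 15 of 17 lower members had the sign of the whole cell difference. Centred on the median nuclear difference of 0.98 cycles, the counts were 48 of 54 and 17 of 17.

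**Figure D5:**
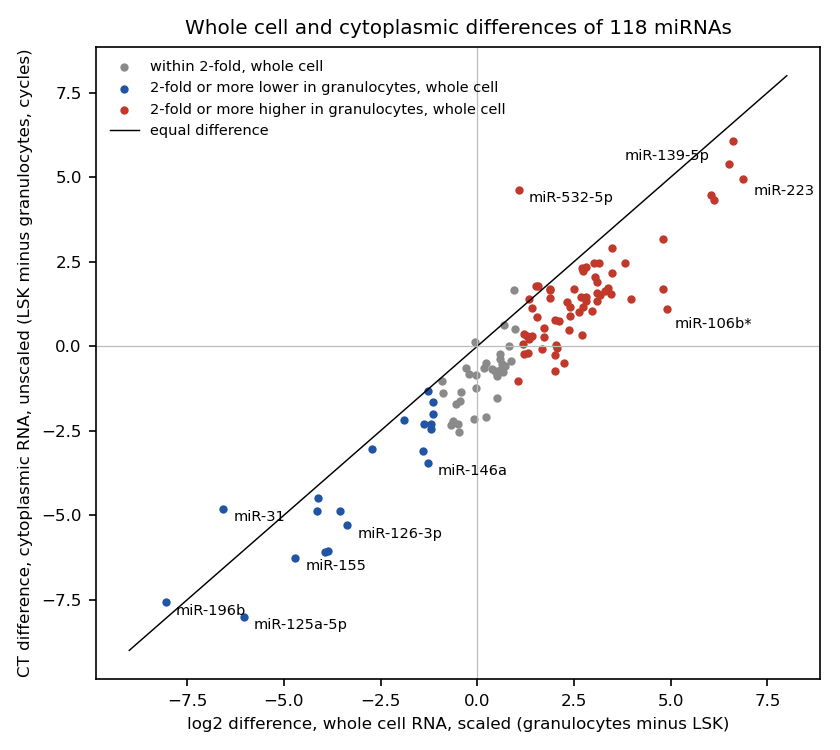
Whole cell log2 difference after scaling (horizontal axis) against the unscaled cytoplasmic CT difference in cycles (vertical axis) for the 118 miRNAs under 40 in all 4 samples, coloured by the whole cell call. The 20 lower miRNAs all lie below 0 on both axes, most points lie under the line of equal difference, and miR-532-5p lies above it at 1.06 and 4.63.

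Markers of other cell types were read as a check on the sorted cells. None of the measured erythroid (1 of 3), muscle (3 of 4), neural (3 of 3) or stromal (2 of 2) miRNAs was under 30 in either sample. miR-486, the only erythroid miRNA among the named assays, was listed at 40 in LSK cells and had a CT of 31.7 in granulocytes. Stromal miR-145 was likewise at 40 and then 32.7, miR-143 was at 40 in both, and the lowest muscle and neural CTs were 32.1 for miR-206 and 33.4 for miR-9*, both in granulocytes. Of 4 epithelial miRNAs miR-200b and miR-429 stayed above 30, whereas miR-203 (27.2 in LSK cells) and miR-200c (27.8 in granulocytes) did not. The lymphoid miR-150 and miR-181a were under 30 in both samples. miR-223, known from neutrophils, was higher in the granulocyte sample but also had a CT of 23.98 in LSK cells. miR-125b-5p, miR-126-3p and miR-196b were higher in the LSK sample, where miR-125b-5p and miR-196b alone passed the CT filter. These values belong to the comparison itself and are no separate check on the sorted cells. The part of other cells in the remaining differences was not tested.

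The limits were set at round values, and members near them are listed for that reason. Just inside the CT limit were miR-467b* (29.85), miR-28 (29.94) and miR-503* (29.97), and just outside were miR-20a* (30.02), miR-339-3p (30.11) and miR-185 (30.17). At the 2-fold limit, miR-30d (1.04), miR-532-5p (1.06) and miR-106b (1.19) counted as higher, while miR-328 (0.97), miR-706 (0.94) and miR-29a (0.86) did not. miR-331-3p (-1.15), miR-92a (-1.15) and miR-101b (-1.19) counted as lower, while miR-425* (-0.91), miR-674* (-0.89) and miR-130b* (-0.67) did not. The 3 assays used for scaling themselves changed by 0.39 to 1.12 cycles, a spread wide enough to move members near the fold limit across it.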

How the data were processed

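Whole cell, cytoplasmic and nuclear RNA of 4 sorted stages was extracted with Trizol and read on TaqMan rodent miRNA cards A and B. The software named in the methods is SDS and RQ Manager, and the authors deposited raw CT values with no normalization and undetermined wells listed at 40. All 12 data columns were used. Assays were named by a unique match, within 0.0005 cycles, of their cytoplasmic and nuclear CTs to the named values published with the study (246), or else, after fitting a straight line for each pair of stages, of their whole cell differences within 0.002 cycles (23). Those lines had a slope of 1.71 published units per cycle, the slope that logarithms to base 1.5 of a 2-fold change per cycle have, so the published whole cell values are not on the log2 scale used here, and they were used for names only. Of the members, 22 were named by whole cell differences alone.

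The difference was CT in LSK cells minus CT in granulocytes less the mean change of the 3 final assays on card B, and a fold was 2 to that power. A call was a difference of 2-fold or more. The miRNAs named in the text are the 12 widest differences each way under a CT of 35 in both samples, those listed at 40, the 10 lowest CTs per sample, the list members and the 3 nearest the 2-fold limit on each side. The 3 nearest the CT limit, strand pairs, genomic neighbours within 10000 bases and other examples were chosen after their values were seen, and so was the set of 6 control assays, unnamed assays with a cytoplasmic CT over 1 cycle above the nuclear CT in the first 3 stages and a CT under 30 in all whole cell samples. The members and lists were chosen with earlier results of these data known.

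Each assay was read in 1 sample per stage, and no error of a CT can be given. Alternatives changed the scaling, the CT and fold limits, the efficiency, the value of undetermined wells, the naming and the RNA fraction. Sequences and positions came from RefSeq tables of GRCm38.p6, and the spans of host genes do not tell strand. Python 3.11.15 was used together with matplotlib 3.10.9, pandas 2.3.3, numpy 2.4.6 and scipy 1.17.1.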

Additional observations from a re-analysis of the deposited data

Results flagged for a closer look

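miR-466d-3p had opposite differences in whole cell and cytoplasmic RNA. In whole cell RNA its CT was 27.5 in LSK cells, 40 in promyelocytes and myelocytes and 25.6 in granulocytes, a log2 difference of 1.31. In cytoplasmic RNA its CT was 26.5 in LSK cells and 40 in granulocytes, an unscaled difference of -13.5 cycles. The difference between the fractions was not tested, with 1 sample of each, and it rests on wells listed at 40.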

How the results depend on the processing

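The counts of 69 higher and 20 lower members and the median of 1.31 kept their direction under the alternatives run, but their sizes moved. Without scaling 12 were lower and the median was 1.99, and the medians of the let-7 family and the lymphoid miRNAs turned to 0.62 and 0.18, as did 13 members inside 2-fold. The let-7 median was also above 0, at 0.57, with a CT limit of 28. With the mean CT of 73 assays as the scaling 31 were lower, the median was 0.47 and 51 were higher, all 51 among the 69. With that mean taken per card the median was 0.67, and among list medians past 2-fold that of the miR-29 family turned, to -0.00893. Among list medians inside 2-fold, those of the miR-17-92 cluster and the Clcn5 intron miRNAs turned under both mean scalings, to -0.40 and -0.25 with the mean of 73 assays and to -0.60 and -0.46 per card. Of the members inside 2-fold, 17 and 14 turned sign under these scalings, while no member past 2-fold did. The 6 control assays, which include the 3 of the scaling used, gave the same 69 and 20 members. With a CT limit of 35 there were 213 members, 102 higher and 40 lower, with a median of 0.81. With a CT under 30 required in both samples 35 were higher, 13 were lower and the median was 0.72. With a fold limit of 3, 12 were lower.

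In cytoplasmic RNA centred on its median 33 members were lower and the median was 0.37. Among list medians past 2-fold, those of the miR-106b-25 and miR-106a-363 clusters, the miR-29 family and the miR-30 family turned to -0.055, -0.14 and -0.32. miR-10b (-0.30), miR-25 (-0.055), miR-27b (-0.52), miR-466d-3p (-13.33), miR-29c (-0.035) and miR-30d (-0.83) were the members past 2-fold that turned sign. In cytoplasmic RNA without scaling, chosen after seeing the data, 35 were lower and the median was 0.17. The 4 list medians past 2-fold that turned were those of the miR-106b-25 and miR-106a-363 clusters (-0.25), the miR-29 family (-0.33), the miR-30 family (-0.52) and the miR-130 and miR-301 family (-0.017). The members past 2-fold that turned were miR-10b (-0.49), miR-28 (-0.062), miR-25 (-0.25), miR-27b (-0.72), miR-322 (-0.10), miR-466d-3p (-13.52), miR-30e* (-0.20), miR-29c (-0.23) and miR-30d (-1.03). Inside 2-fold the median of the miR-17-92 cluster turned too, to -0.57 centred and -0.77 without scaling, as did 16 members in each case. The cause of these changes was not tested.

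A median counted as moved when it changed by over 1.5-fold, a limit set after the values were seen because no replicate error exists. No paired analysis was possible because each stage has 1 sample and no replicate number. CTs above 30 stand for little template, and the 3 members listed at 40 in LSK cells have no measured level there.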

Other observations

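Assays without a name also differed between the samples. Of 11 such assays with a CT under 30 in either sample, 6 belong to the control set, with changes of 0.24 to 1.20 cycles. Among the other 5, assay 339 of card A had CTs of 28.6, 32.4, 37.6 and 35.4 from LSK cells to granulocytes, a log2 difference of -7.52, which would place it beside miR-196b. Assay 572 of card B had CTs of 26.6 and 28.2, a log2 difference of -2.33. Their identities were not settled here.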
